A study of Mus musculus with 8 samples.

Results

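The cells described here were 155 of the 11494 cells sorted for Drd1a-tdTomato from the frontal cortex of mouse pups, in a series of 22876 cells. Each had at least 1 count of Meis2 and of Pbx3, at least 1 count of Sp8 or Sp9, and at least 1 count of Dlx1, Dlx2 or Dlx5, with no count of Top2a or Mki67, which mark dividing cells. They are called Sp8/Sp9 cells below. The cells were chosen by the counts of these 9 genes, whose levels are given as a description with no test.

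The study sorted reporter-positive cells from the frontal isocortex of postnatal day 7 mice, dissected apart from the olfactory areas, and compared controls with littermates that lacked Foxp2 in the Emx1 lineage. The 2 control libraries carried the Drd1a-tdTomato reporter (a bacterial artificial chromosome transgene under the dopamine D1 receptor gene) and Foxp2 flox/flox alleles without Cre. The 2 conditional knockout (cKO) libraries carried the same reporter and Foxp2 flox/flox alleles with Emx1-Cre. All were C57BL/6J. Control 1 and cKO 1 were prepared on 1 day (batch 1), and control 2 and cKO 2 on another (batch 2). Both controls and cKO 1 were female and cKO 2 was male. The labels call the libraries independent replicates and do not say how many pups went into each. A second sort, for golli-τ-eGFP, was used only to count cells that met the same rule.

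As background, Sp8 and Sp9 are zinc finger transcription factors of GABAergic neurons born in the dorsal lateral ganglionic eminence. After birth this lineage persists in the subventricular zone, and its neuroblasts migrate along the rostral migratory stream to become granule and periglomerular interneurons of the olfactory bulb. Meis2 and Pbx3 are homeodomain partners that mark the same lineage, and the Dlx genes encode homeodomain factors shared by nearly all forebrain GABAergic neurons. Emx1-Cre recombines in progenitors of the dorsal telencephalon, which give rise to cortical excitatory neurons and glia among other cells, and acts little in the ganglionic eminences. Whether Cre had acted in the Sp8/Sp9 cells was not tested. Foxp2, a forkhead repressor, is known in cortex from deep-layer excitatory neurons, and in the striatum and olfactory system from GABAergic neurons.

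Values below are listed in the order control 1, control 2, cKO 1, cKO 2, and levels are in CPM, a gene's share of the counts summed over the Sp8/Sp9 cells of a library on a common scale. The libraries held 3206, 2395, 2812 and 3081 cells, against 1000 aimed at in the labels, with total counts between 27323298 and 36379194. The median count per cell was 8130.5, 12815, 7215 and 7198. Foxp2, the targeted gene, stood at 36.3, 39.1, 26.5 and 19.4 CPM over all cells of each library, lower in both cKO libraries than in both controls. The sources used here do not give the deleted part of Foxp2, and 3′ counts can fall outside it, so this is a weak check of the labels. Counts did not behave as single molecules: values of 2 occurred 1.69, 0.723, 1.54 and 0.307 times as often as values of 1. In the sort, 97 barcodes occurred in more than 1 library, and 4 Sp8/Sp9 cells carried such a barcode.

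Sp8/Sp9 cells took up a larger share of both cKO libraries than of both controls. They were 15 of 3206 cells in control 1 (0.468%, exact 95% interval 0.262 to 0.771%) and 11 of 2395 in control 2 (0.459%, 0.229 to 0.820%). In cKO 1 they were 75 of 2812 cells (2.67%, 2.1 to 3.33%), and in cKO 2 they were 54 of 3081 (1.75%, 1.32 to 2.28%). The groups did not overlap, and neither did the intervals of any control and any cKO library, which cover counting error only. The mean share was 0.464% ± 0.00607 in controls and 2.21% ± 0.647 in cKO libraries (SD, n = 2 each), a ratio of 4.77, with 5.70 within batch 1 and 3.82 within batch 2. The exact permutation test over libraries, two-sided, gave p = 0.33, the smallest value that 2 against 2 can reach. Without the cells of shared barcodes the ratio was 4.83. Without Sp8/Sp9 cells that also carried at least 2 of the excitatory markers Neurod6, Slc17a7 and Tbr1 or of the astrocyte markers Aldoc, Aqp4 and Slc1a3, 9, 3, 50 and 10 were left (0.281, 0.125, 1.78 and 0.325%). The interval of cKO 2 was then 0.156 to 0.596% and overlapped those of control 1 (0.128 to 0.532%) and control 2 (0.0258 to 0.366%), so that only cKO 1 stood apart. In the golli-τ-eGFP sort 0 of 3948, 1 of 3071, 2 of 1440 and 1 of 2923 cells met the rule. Median counts there were only 1085.5, 1163, 2982 and 1268 per cell, below every Drd1a-tdTomato library. So few cells in that sort cannot be told from the effect of low depth.

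Cells of a type that should not carry these genes also met the rule at times. Oligodendrocyte precursor-like (OPC-like) cells were those of clusters with Pdgfra, Cspg4 and Sox10 among the leading genes. Of these cells 0.559, 1.03, 0.958 and 0.810% met the rule, with a median count of 7532 per cell, against 9550 in the Sp8/Sp9 cells. The control shares of 0.468 and 0.459% lay below that level, and both cKO shares lay above it. Of 279 endothelial-like cells, with a median count of 18777, 0 met the rule, so a share as high as 1.08% cannot be told from 0. With every cell thinned to 2000 counts, 2, 0, 31 and 16 cells met the rule (0.0654, 0, 1.17 and 0.534%), and no OPC-like cell did. At 4000 counts the shares were 0.338, 0.211, 1.95 and 1.25%, against 0.649, 0.685, 0.347 and 0.218% of OPC-like cells. Of cells with counts for both Gad1 and Gad2, the GABA-synthesising enzymes, 2.84, 2.78, 8.91 and 10.2% met the rule.

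**Figure D1:**
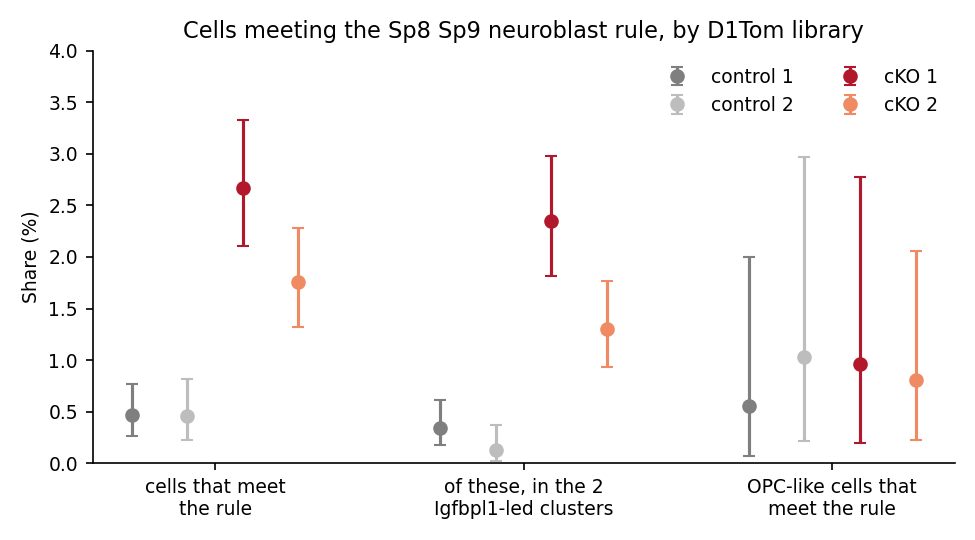
Share of cells (%) that met the Sp8 Sp9 rule in each Drd1a-tdTomato library, with exact 95% intervals as bars, for all cells, for those inside the 2 Igfbpl1-led clusters, and among oligodendrocyte precursor-like (OPC-like) cells. Both cKO points (2.67 and 1.75%) lie above both control points (0.468 and 0.459%) among all cells, while OPC-like cells sit between 0.559 and 1.03% in all 4 libraries.

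Clustering of the whole sort placed 120 of the 155 cells in 2 clusters that share Igfbpl1 among their leading genes. The first, of 672 cells, held 91 of them (10, 2, 52 and 27). Its leading genes were Adarb2, Igfbpl1, Cxcl14, Sp8, Tac2, Igf1, Dlx1, Dlx2, Crh and Vip. Adarb2 and Vip are also markers of interneurons of the caudal ganglionic eminence, so a place in this cluster does not by itself bear out the label neuroblast-like. The second, led by Sfrp1, Naaa, Igfbpl1 and Pax6, held 29 (1, 1, 14 and 13). The remaining 35 cells (4, 8, 9 and 14) were spread over other clusters, 12 of them in OPC-like clusters and 2 in clusters of dividing cells. As shares of all cells these 35 were 0.125, 0.334, 0.320 and 0.454%, and the groups overlapped. Of the 11 Sp8/Sp9 cells of control 2, only 3 lay in the Igfbpl1-led clusters.

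Inside the Igfbpl1-led clusters the shares of all cells were 0.343, 0.125, 2.35 and 1.30%, a ratio of 7.78 (6.84 and 10.4 within the batches). Sp8/Sp9 cells made up 5.18, 2.99, 17.1 and 25% of the Sp8-led cluster and 12.5, 9.09, 16.3 and 24.1% of the Pax6-led cluster. Median counts differed by place, at 5749 in the Sp8-led cluster, 11941 in the Pax6-led cluster and 15282 elsewhere. Since the clusters were made from the expression of these same cells, differences between them are a description. Igfbpl1, a binding-protein-like gene known from newborn neurons, stood at 1071 CPM in the Sp8-led cells, 341 CPM in the Pax6-led cells and 220.0 CPM in the others. Pax6, a paired homeodomain factor of progenitors and of some olfactory bulb interneurons, stood at 161, 308 and 84.3 CPM. Slc1a3, the glial glutamate transporter of radial glia and astrocytes, stood at 424, 3491 and 979 CPM, so the Pax6-led cells carried the most of it. Dcx, the microtubule protein of migrating neurons, stood at 1020.4, 617 and 749 CPM, and Gad1 at 235, 60.6 and 185 CPM.

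**Figure D2:**
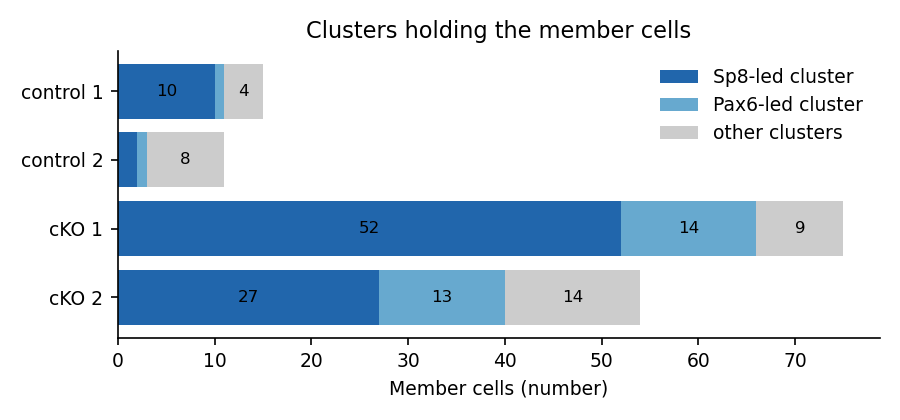
Number of Sp8/Sp9 cells (horizontal axis) in each Drd1a-tdTomato library, split by cluster: the Sp8-led and Pax6-led clusters, which share Igfbpl1 among their leading genes, and all other clusters. The Igfbpl1-led clusters hold 66 of 75 cells in cKO 1 and 40 of 54 in cKO 2, against 11 of 15 in control 1 and 3 of 11 in control 2.

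The genes that chose the cells were often present at only a few counts. Over the 155 cells the median was 10 counts for Meis2, 3 for Pbx3, 1 for Sp8, 2 for Sp9, 3 for Dlx1, 2 for Dlx2 and 1 for Dlx5. Exactly 1 count of Meis2 was found in 9 cells and exactly 1 of Pbx3 in 35. Sp8 was counted without Sp9 in 37 cells, Sp9 without Sp8 in 49, and both in 69. Of the 3 Dlx genes, 30 cells had 1, 56 had 2 and 69 had all 3. Meis2 stood at 629, 372, 1906 and 1133 CPM, Sp8 at 172, 84.6, 268 and 162 CPM and Sp9 at 184, 79, 319.5 and 207 CPM. Control 2 was lowest for all 3 of these genes and cKO 1 was highest. Dlx1 stood at 374, 181, 402 and 377 CPM and Dlx5 at 131, 22.6, 181 and 130.4 CPM, with control 2 again the lowest.

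Cells that missed the rule by 1 condition were counted too. It was the count of Pbx3 in 216 cells, of Sp8 and Sp9 in 94, of Meis2 in 52 and of the Dlx genes in 17. A further 85 cells (1, 9, 22 and 53) met it but for a count of Top2a or Mki67. With those dividing cells kept, 16, 20, 97 and 107 cells met the rule, and cKO libraries stayed above controls.

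The label neuroblast-like could not be checked with Sp8, Sp9, Meis2, Pbx3 or the Dlx genes, which were used to choose the cells. Of genes outside the rule, Gad1 was counted in 59.4% of the Sp8/Sp9 cells and Gad2 in 61.3%, against 13.3 and 11.5% of OPC-like cells. Thinned to 4000 counts, Igfbpl1 was detected in 71.4% of them, against 17.5% of Adarb2 interneurons, 4.48% of Lhx6 interneurons, 4.01% of OPC-like cells and 2.2% of endothelial-like cells. Tshz1, a zinc finger factor of lateral ganglionic eminence derivatives, was detected in 62.1% of the thinned cells, against 22.5% of OPC-like and 14.8% of endothelial-like cells. Pax6 was detected in 35% of them, against 10.5 and 3.61%. Etv1, an ETS factor of olfactory bulb interneurons, was detected in 52.1%, against 35.9% of OPC-like cells. Zic1 was detected in 25.7% of them but in 33.6% of endothelial-like cells. With the libraries pooled, Igfbpl1 and Tshz1 were each detected in most of the thinned cells. Of these genes only Igfbpl1 was set against the interneuron classes as a share of cells. Tshz1 stood at 128, 69.7, 166 and 153 CPM in Adarb2 interneurons, below the 321, 197, 543 and 249 CPM of the Sp8/Sp9 cells. Before thinning, 15 and 11 cells were from controls and 75 and 54 from cKO libraries. The label was not tested in the controls alone. The 35 cells outside the Igfbpl1-led clusters grouped with other types. Adarb2 itself was counted in many Sp8/Sp9 cells of every library. The Sp8-led cluster, with 91 of the cells, also had the caudal interneuron markers Adarb2 and Vip among its leading genes.

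Markers of striatal projection neurons, which include D1 receptor neurons and are rich in Meis2, were checked as a list of 15. Of these 11 were detected, with summed levels of 350.2, 226, 314 and 306 CPM. Most of this was Bcl11b, a factor shared with many other neurons, at 255, 129.8, 271 and 255 CPM. Of the defining markers, Ebf1, Isl1, Drd2 and Ikzf1 had 0 counts in all 155 cells, and Six3 stood at 0, 0, 5.71 and 1.45 CPM. The D1 receptor gene that drives the sorting reporter, listed as Drd in the table and taken for Drd1, stood at 23.7, 62.1, 11.4 and 27.5 CPM, against 65.5, 64.4, 27.3 and 21 CPM over the whole sort. It was counted in 14.8% of Sp8/Sp9 cells, in 10.4% of OPC-like cells and in 36.3% of Adarb2 interneurons. Thinned to 4000 counts, Drd was detected in 5% of Sp8/Sp9 cells and 5.72% of OPC-like cells, so its share in the Sp8/Sp9 cells was not above background. Lhx6, which marks interneurons of the medial ganglionic eminence, was counted in 1 of the 155 cells. Emx1, the gene whose promoter drives Cre, stood at 17.8, 22.6, 2.85 and 5.79 CPM.

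Markers of other cell types were summed over lists of genes. The 7 astrocyte markers summed to 1324, 2934, 2235 and 3304 CPM in the Sp8/Sp9 cells, and all 7 were detected in every library. The sum was 961 CPM in the Sp8-led cells and 6148 CPM in the Pax6-led cells. The 5 OPC markers summed to 439, 982, 318 and 569 CPM and the 8 cortical excitatory markers to 196, 953, 211 and 359 CPM. Control 2 was the highest library for both lists, and Olig1 was counted in all 11 of its Sp8/Sp9 cells. The 5 microglial and 4 endothelial markers summed to at most 7.24 and 16.9 CPM. The part of these transcripts in the results below was not tested.

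**Figure D3:**
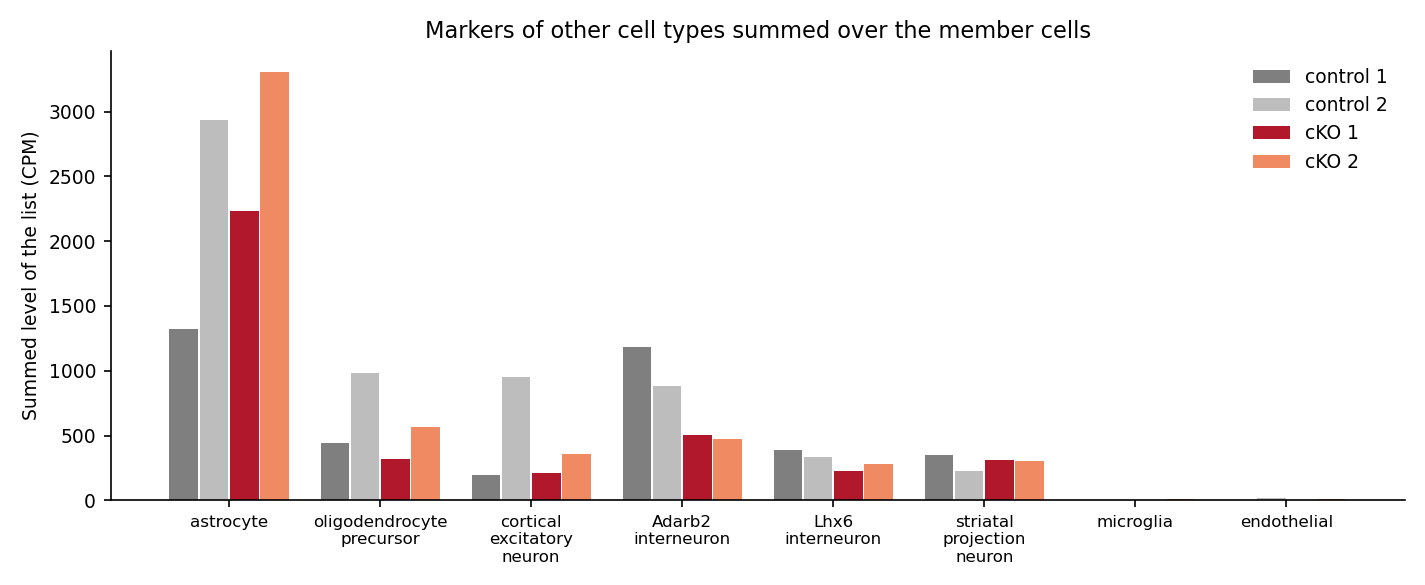
Summed level (CPM) of 8 lists of cell type markers over the Sp8/Sp9 cells of each Drd1a-tdTomato library. Astrocyte markers reach 3304 CPM in cKO 2, control 2 is the highest for OPC and cortical excitatory markers (982 and 953 CPM), and microglial and endothelial markers stay under 17 CPM.

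Foxp2 was counted in the Sp8/Sp9 cells of every library. It stood at 59.4, 39.5, 239.6 and 85.5 CPM, so that both cKO libraries were above both controls. The edgeR quasi-likelihood test gave a log2 difference of 1.74 (SE 0.56) for cKO against control, with a Benjamini-Hochberg adjusted p = 0.818. With the batch-paired replicate block, the edgeR estimate was 1.68 and the adjusted p = 0.0186. That fit leaves hardly any residual degrees of freedom, so its p-value rests mainly on spread shared across genes. The estimate ranged from 0.94 to 2.28 when 1 library was left out.

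Foxp2 counts were carried by a minority of the cells. Foxp2 was counted in 5 of 15, 3 of 11, 20 of 75 and 22 of 54 Sp8/Sp9 cells (33.3, 27.3, 26.7 and 40.7%). The highest Foxp2 count of any cell was 2, 3, 29 and 9. At least 4 counts were found in 0, 0, 14 and 5 cells. In cKO 1 the 3 highest cells held 41.1% of the Foxp2 counts, and in cKO 2 they held 39.0%. The shares of cells with Foxp2 overlapped between the groups, and the highest counts come from 15 and 11 cells in the controls against 75 and 54 in the cKO libraries, so they cannot be compared as they stand. Thinned to 4000 counts, Foxp2 was detected in 3 of 15, 0 of 11, 9 of 60 and 16 of 54 cells, 20% in all. The same thinning left it in 9.06% of OPC-like cells, 5.42% of endothelial-like cells, 3.04% of Adarb2 interneurons and 0 of 67 Lhx6 interneurons, a count that leaves room for up to 4.48% of them. In the Sp8-led cells alone the Foxp2 level was 55, 0, 208 and 163 CPM. The other family members, Foxp1 and Foxp4, stood at 172, 333, 127 and 211 CPM and 23.7, 16.9, 39.9 and 20.3 CPM, and in both cases the groups overlapped.

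The Sp8/Sp9 cells were next compared with 2 classes of cortical interneuron from the same libraries. Adarb2 interneurons, of caudal ganglionic eminence origin, had counts for Gad1, Gad2, Adarb2 and Prox1 and none for Lhx6, and numbered 93, 67, 71 and 42. Lhx6 interneurons, of medial ganglionic eminence origin, had counts for Gad1, Gad2, Lhx6 and Sox6 and none for Adarb2, and numbered 14, 23, 22 and 8. Their median counts per cell were 13590 and 19028, above the 9550 of the Sp8/Sp9 cells. Of the Sp8/Sp9 cells, 14 also met the Adarb2 definition and were kept out of that class, and 0 met the Lhx6 definition. Genes used by any of the definitions were not tested.

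Compared with Adarb2 interneurons, the Sp8/Sp9 cells carried more of 6 transcription factors of the lateral ganglionic eminence and olfactory bulb lineage, and less of Reln and Npy. Of 11 tested maturation genes 4 were lower and 2 higher. In all 903 of 9282 genes passed (9.73%), 410 higher in the Sp8/Sp9 cells (4.42%) and 493 lower (5.31%), by edgeR's quasi-likelihood test with the library as a block. The count was 480 of 8667 tested genes without cKO 1, 347 of 9275 without cKO 2 and 223 of 3123 with cells thinned to 4000 counts. It was 562 without the library block (6.85%) and 597 by DESeq2 (6.43%). It was 811 of 8597 for the 120 cells of the Igfbpl1-led clusters, 603 of the 811 shared with the 903, a comparison chosen after seeing the data.

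Of 10 tested transcription factors of that lineage, 6 were higher in the Sp8/Sp9 cells and 0 lower, with a median log2 difference of 1.27 against 0.00 over all genes. The same number, 6 of 10, passed in the Igfbpl1-led clusters. Pax6 stood at 83.1, 50.8, 225 and 154 CPM in the Sp8/Sp9 cells and 7.57, 15.2, 19.6 and 26.5 CPM in Adarb2 interneurons (edgeR log2 difference 2.88, SE 0.31, adjusted p = 1.61e-05), and the classes did not overlap. Tshz1 stood at 321, 197, 543 and 249 CPM and 128, 69.7, 166 and 153 CPM (edgeR log2 difference 1.30, SE 0.19, adjusted p = 0.000285), also without overlap. Zic1, a zinc finger factor, was higher in 3 of 4 libraries, by 2.56 on the log2 scale. Etv1 was higher by 1.37 and Sall3 by 1.77 on the same scale. Meis1, a homeodomain partner of the same family as Meis2 and outside the rule, stood at 35.6, 39.5, 99.8 and 50.7 CPM and 0, 6.06, 8.71 and 5.67 CPM (edgeR log2 difference 3.52, SE 0.49, adjusted p = 0.000173).

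Foxp2 was among the genes with the largest differences between these classes. Against the levels given above, it stood at 1.38, 18.2, 15.2 and 7.56 CPM in Adarb2 interneurons (edgeR log2 difference 3.30, SE 0.44, adjusted p = 0.000119), and it passed in every alternative run for it. Foxp1, its family member, had a log2 difference of 0.72 with an edgeR adjusted p = 0.0411, but of -0.01 in the Igfbpl1-led clusters, with an adjusted p = 0.987. Other genes with large differences were Mpped2, a metallophosphoesterase gene, at 202, 192, 836 and 611 CPM and 15.1, 78.8, 76.2 and 75.6 CPM (edgeR log2 difference 2.86, SE 0.29, adjusted p = 7.82e-06), and Tiam2, a Rac exchange factor, higher by 2.55. Crabp1, a retinoic acid binding protein, stood at 142, 16.9, 81.3 and 14.5 CPM and 8.26, 2.02, 0 and 1.89 CPM, higher in both libraries of batch 1 than in batch 2. Cd1d1 was higher by 3.92, Cpne4 by 3.07 and Syt6 by 2.62 on the log2 scale. Pou3f1 was higher by 2.73, a call that was lost in the Igfbpl1-led clusters, where the adjusted p was 0.545.

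Genes of immature migrating neurons were counted as a list of 12 tested, of which 5 were higher and 1 lower. Igfbpl1 stood at 445, 62.1, 964 and 462 CPM in the Sp8/Sp9 cells and 47.5, 40.4, 236 and 30.3 CPM in Adarb2 interneurons (edgeR log2 difference 2.52, SE 0.32, adjusted p = 7.25e-05), and control 2 was the lowest of the Sp8/Sp9 values. Dcx stood at 974, 767, 862 and 808 CPM and 411, 436, 523 and 410.3 CPM (edgeR log2 difference 0.92, SE 0.14, adjusted p = 0.000301), with no overlap. Sox11 and Sox4, SoxC factors of newborn neurons, were higher by 1.12 and 1.19 on the log2 scale. Cd24a, a surface protein of neuroblasts, was higher by 0.49. Stmn2, a tubulin-binding protein of growing axons, went the other way, with a log2 difference of -0.62. Of 9 guidance and motility receptors 1 was higher and 2 lower. Prokr2, the prokineticin receptor needed for migration to the olfactory bulb, stood at 59.4, 16.9, 92.7 and 60.8 CPM and 6.88, 12.1, 13.1 and 11.3 CPM (edgeR log2 difference 2.37, SE 0.40, adjusted p = 0.000967). Erbb4, a neuregulin receptor, was lower in 3 of 4 libraries, and Cxcr4, a chemokine receptor of migrating cortical interneurons, had 0, 0, 1 and 1 counts in the Sp8/Sp9 cells against 15.8, 15.2, 15.2 and 11.3 CPM.

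Of 3 tested genes of GABA synthesis and transport 2 were lower in the Sp8/Sp9 cells and 0 higher. Slc32a1, the vesicular GABA transporter, stood at 77.2, 16.9, 98.4 and 44.9 CPM and 192, 146, 208 and 178 CPM (edgeR log2 difference -1.62, SE 0.26, adjusted p = 0.000511). Among the 4 lower maturation genes were the synaptic vesicle genes Snap25 (-0.99) and Syt1 (-1.10) and the splicing factor Rbfox3 (-1.33), all as log2 differences. Map2 and Nefl, genes of the cytoskeleton, were higher, by 0.70 and 1.44. In the Igfbpl1-led clusters 6 of the list were lower and 1 higher.

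Of the genes named against Adarb2 interneurons Reln had the largest decrease. Reln, the secreted protein of layer 1 and neurogliaform cells, stood at 576, 11.3, 14.3 and 73.9 CPM in the Sp8/Sp9 cells and 1360.3, 1109.5, 1165 and 1779 CPM in Adarb2 interneurons (edgeR log2 difference -4.02, SE 0.52, adjusted p = 8.12e-05). Control 1 was the highest of the Sp8/Sp9 values, and the classes did not overlap. Npy, neuropeptide Y, stood at 261, 90.3, 49.9 and 104 CPM and 1426, 751, 751 and 1280.2 CPM (edgeR log2 difference -3.29, SE 0.20, adjusted p = 4.19e-08), again without overlap. Nr2f2, the orphan nuclear receptor of caudal interneurons, stood at 71.2, 33.8, 5.71 and 17.4 CPM and 303, 189, 276 and 216 CPM (edgeR log2 difference -3.45, SE 0.36, adjusted p = 1.20e-05). The log2 difference was -3.67 for the opioid-like peptide gene Pnoc, with Lamp5 at -3.40, Fgf9 at -3.33, Cxcl14 at -3.00 and Ndnf at -2.98. Igf1 stood at -2.88, Adra1b at -2.93, and the cannabinoid receptor Cnr1 at -2.26. Of 5 tested markers of caudal interneurons 3 were lower (Nr2f2, Cnr1 and Npas1) and 1 was higher. The higher one, Htr3a, stood at 172, 11.3, 59.9 and 63.7 CPM in the Sp8/Sp9 cells and 25.5, 22.2, 33.7 and 13.2 CPM in Adarb2 interneurons (edgeR log2 difference 1.51, SE 0.41, adjusted p = 0.0248), higher in 3 of 4 libraries. Its edgeR adjusted p was 0.0623 in the Igfbpl1-led clusters, 0.299 without the highest doublet scores, 0.186 without control 1 and 0.219 without cKO 2, so the call did not hold there.

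Of 3 tested genes of olfactory bulb interneuron subtypes, Calb2 (calretinin) and Synpr (synaptoporin) were higher, by 2.75 and 1.15, each in 3 of 4 libraries. Calb2 stood at 202, 11.3, 128 and 15.9 CPM in the Sp8/Sp9 cells, high in both libraries of batch 1 and low in both of batch 2. Th, tyrosine hydroxylase of periglomerular cells, was counted in 2 of 155 cells. Markers of other types also passed against Adarb2 interneurons, with 5 of 7 astrocyte, 4 of 5 OPC and 3 of 6 excitatory markers higher, though 3 of those astrocyte markers (Aldoc, Aqp4 and Slc1a2) turned direction when cells were thinned to 4000 counts. In the Igfbpl1-led clusters 4 of the 7 astrocyte markers, 0 of 4 tested OPC markers and 0 of the excitatory markers passed.

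Against Lhx6 interneurons 865 of 7195 genes passed (12.0%), 385 higher in the Sp8/Sp9 cells (5.35%) and 480 lower (6.67%), by the same edgeR test. The count was 299 of 5133 tested genes without cKO 1, 486 of 6926 without cKO 2 and 91 of only 508 with thinned cells. It was 537 without the library block (9.18%) and 470 by DESeq2 (6.53%). For the Igfbpl1-led clusters it was 809 of 7175, with 632 shared. Of the genes called against both classes, which share the Sp8/Sp9 sums, 186 were higher and 169 lower in each comparison.

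The same transcription factors stood out against Lhx6 interneurons, with 5 of 8 tested lineage factors higher and a median log2 difference of 2.11, against 0.03 over all genes. Tshz1 stood at 37.6, 19.2, 13.1 and 58 CPM in Lhx6 interneurons (edgeR log2 difference 3.66, SE 0.37, adjusted p = 6.14e-07), below every value in the Sp8/Sp9 cells. Pax6 was higher by 4.23 on the log2 scale, Zic1 by 3.45 in 3 of 4 libraries, Sall3 by 2.40 and Etv1 by 1.82. Igfbpl1 stood at 7.53, 7.2, 22.5 and 0 CPM in Lhx6 interneurons (edgeR log2 difference 5.31, SE 0.38, adjusted p = 3.22e-09). Foxp2 stood at 3.76, 12, 0 and 0 CPM (edgeR log2 difference 4.49, SE 0.68, adjusted p = 0.000106), and Meis1 was higher by 3.55. Htr3a, the serotonin-gated channel of caudal-type interneurons, was higher by 4.72. Crabp1 had no count in Lhx6 interneurons.

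Of 12 immature migrating neuron genes 5 were higher than in Lhx6 interneurons and 2 lower. Sox4 was higher by 1.80 on the log2 scale, Cd24a by 1.55, Sox11 by 1.33 and Dcx by 0.83, while Ncam1 and St8sia4, the adhesion molecule and an enzyme that adds polysialic acid to it, were lower, with log2 differences of -0.59 and -1.32. Epha4, Robo2 and Erbb4 were higher among 6 tested receptors, and 1 of the list passed in the Igfbpl1-led clusters. Erbb4 was close to the threshold (edgeR adjusted p = 0.0493) and lower in control 2, at 62.1 CPM against 69.6 CPM in Lhx6 interneurons.

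All 4 tested markers of medial interneurons were lower in the Sp8/Sp9 cells. Sst, somatostatin, stood at 53.4, 5.64, 11.4 and 27.5 CPM in them and 9425, 2780.3, 4979 and 938 CPM in Lhx6 interneurons (edgeR log2 difference -7.19, SE 0.38, adjusted p = 1.58e-11). Satb1 and Maf had log2 differences of -2.27 and -2.46. The log2 difference was -6.16 for Npy, -4.43 for Nos1 (neuronal nitric oxide synthase) and -3.86 for Calb1 (calbindin). Crhbp had 1 count and Tmem132c 2 counts in all Sp8/Sp9 cells, against 33.9, 60, 154 and 96.7 CPM and 109, 45.6, 52.6 and 19.3 CPM in Lhx6 interneurons. Slc32a1, Syt1, Snap25 and the chloride transporter Slc12a5 were lower, with log2 differences of -1.74, -1.18, -0.65 and -1.90. Satb1 went in opposite directions in the comparisons, higher by 1.75 than in Adarb2 interneurons. Of other types, 6 of 7 astrocyte markers, 1 of 4 OPC markers and 2 of 6 excitatory markers were higher than in Lhx6 interneurons, against 3, 0 and 0 in the Igfbpl1-led clusters, and Slc1a2 turned direction when cells were thinned.

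**Figure D4:**
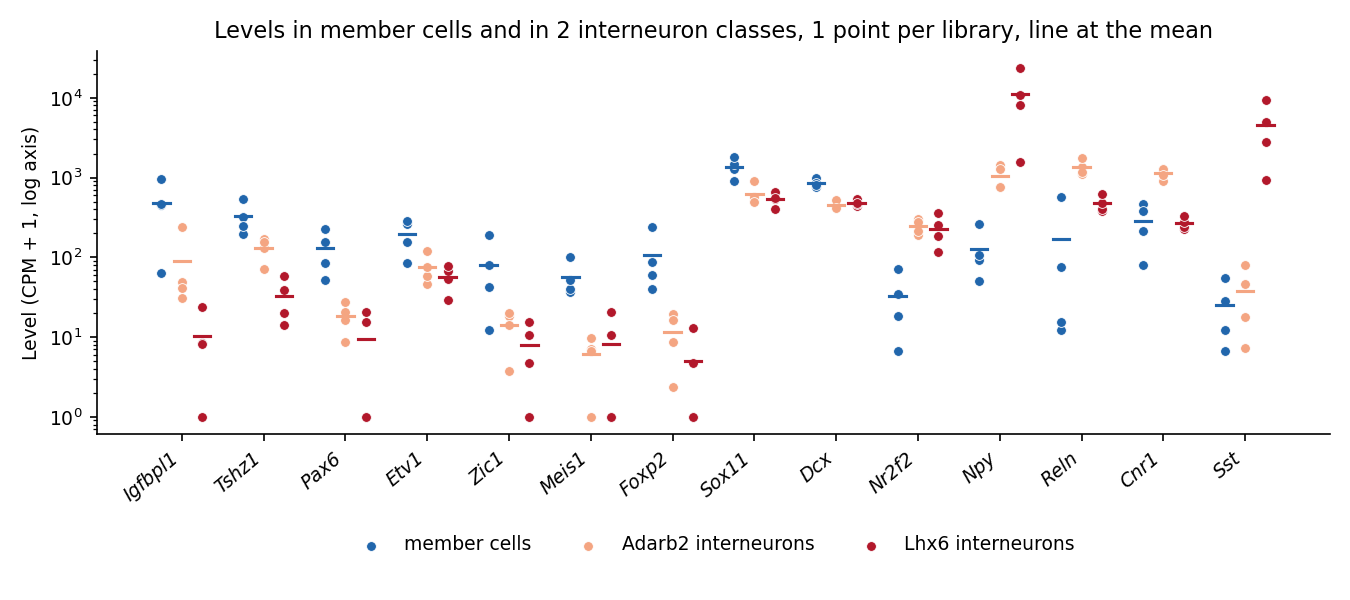
Level (CPM + 1, log axis) of 14 genes in the Sp8/Sp9 cells, Adarb2 interneurons and Lhx6 interneurons, with 1 point per Drd1a-tdTomato library and a line at the mean. Pax6, Tshz1 and Dcx do not overlap with the Adarb2 class (Pax6 50.8 to 225 CPM against 7.57 to 26.5 CPM), Npy and Nr2f2 lie below it, and Sst separates the Lhx6 class.

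Between cKO and control, no gene of the Sp8/Sp9 cells passed. The edgeR quasi-likelihood test called 0 of 7071 genes (0.0%), with 417 at an unadjusted p under 0.05, and DESeq2 called 2 (0.0283%). With the replicate block edgeR called 62 (0.877%), 31 higher and 31 lower in the cKO. All p-values with the block, here and below, rest mainly on spread shared across genes, hardly on each gene's own. The controls held only 26 of the 155 cells, and the count was 78 without control 1, 74 without control 2, 0 without cKO 1 and 3 without cKO 2. Each of these fits has 1 library in an arm, which is assumed to vary like the pair in the other arm. Both cKO libraries lay above both controls for 1156 genes (16.3%) and below them for 1314 (18.6%).

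Genes whose libraries did not overlap and whose p was smallest are given by value. Mpped2 stood at 202, 192, 836 and 611 CPM, a log2 difference of 1.92 (SE 0.33) with adjusted p values of 0.491 by edgeR, 8.84e-08 by edgeR with the block and 0.0250 by DESeq2. Both cKO values were more than 3 times either control value. Hist1h2ap, a replication-linked histone gene, stood at 41.6, 33.8, 158 and 178 CPM, Gfap, an intermediate filament of astrocytes and radial glia, at 17.8, 22.6, 104 and 132 CPM, and Cdca7, a cell-cycle gene, at 29.7, 5.64, 99.8 and 110.1 CPM. With the block their edgeR adjusted p values were 0.000471, 0.00143 and 0.00291. All 3 were above both controls in both cKO libraries, which the choice of genes required.

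In the other direction the 5 genes of smallest p among those whose groups did not overlap were Chl1, Slitrk1, Vsnl1, Eps8 and Nr3c2. Chl1, a cell adhesion molecule, stood at 416, 536, 69.9 and 178 CPM, with an edgeR log2 difference of -1.87 and an adjusted p of 0.818 without and 2.40e-08 with the block. Slitrk1, a synaptic membrane protein, stood at 184, 56.4, 17.1 and 24.6 CPM, Vsnl1, a neuronal calcium sensor, at 154, 147, 54.2 and 39.1 CPM, and Eps8, an actin regulator, at 77.2, 56.4, 7.13 and 11.6 CPM. Nr3c2, the mineralocorticoid receptor, stood at 71.2, 39.5, 5.71 and 4.35 CPM. With the block their edgeR adjusted p values were 0.00444, 0.0163, 0.0363 and 0.0341. All 4 were below both controls in both cKO libraries, which the choice of genes required.

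**Figure D5:**
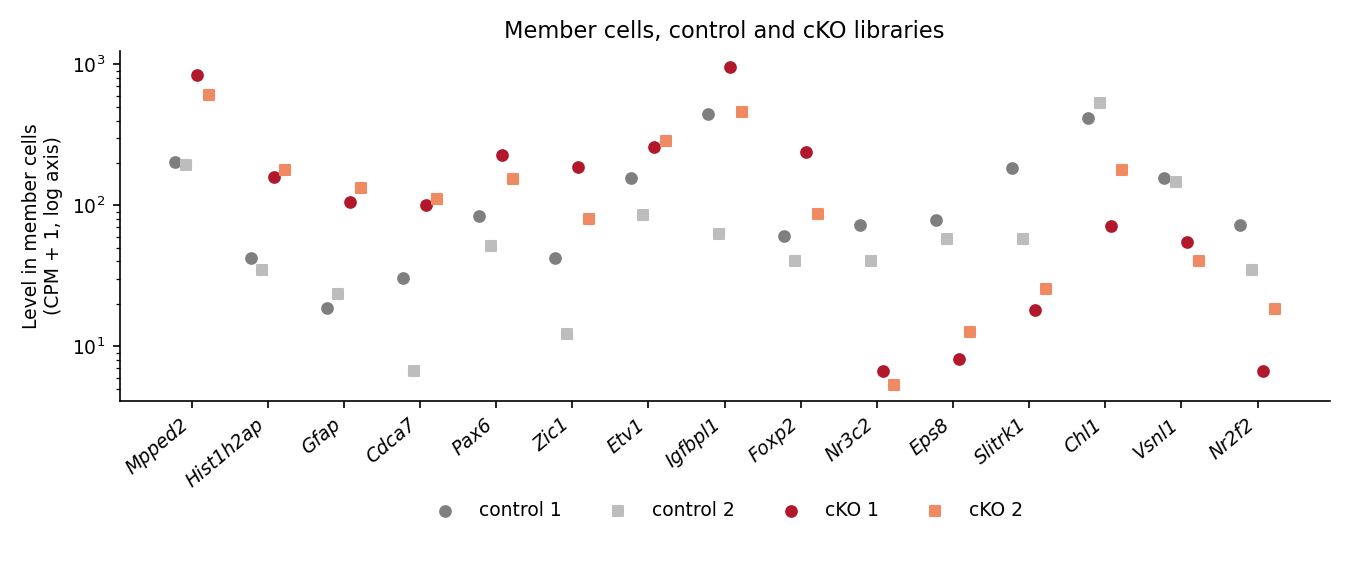
Level (CPM + 1, log axis) of 15 genes in the Sp8/Sp9 cells of each Drd1a-tdTomato library. Circles are batch 1 and squares batch 2. Mpped2 to Foxp2 lie higher in cKO libraries, except that Igfbpl1 in control 1 (445 CPM) is close to cKO 2 (462 CPM), and Nr3c2 to Nr2f2 lie lower.

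Among the lineage transcription factors all 8 tested had positive log2 differences in the cKO, with a median of 0.93 against 0.02 over all genes. In both cKO libraries 4 of the 8 lay above both controls, as did 16.3% of all genes. None passed the edgeR test, and 3 passed with the block, where 0.438% of all genes passed as higher. Pax6 stood at 83.1, 50.8, 225 and 154 CPM, Zic1 at 41.6, 11.3, 187 and 79.7 CPM and Etv1 at 154, 84.6, 258 and 284 CPM, with edgeR adjusted p values with the block of 0.0136, 0.00151 and 0.0213. Igfbpl1, given above by library, had an edgeR adjusted p = 1.03e-06 with the block and 0.818 without. In the Igfbpl1-led clusters 6 of 7 lineage factors were positive, and without control 2 it was 7 of 10, with 0 passing in either.

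Caudal interneuron markers lay the other way, with 0 of 6 positive, a median log2 difference of -0.96, and 4 of 6 below both controls. Over all genes 18.6% lay below both controls. Nr2f2 stood at 71.2, 33.8, 5.71 and 17.4 CPM, and the whole list summed to 1181, 880.1, 508 and 474 CPM. Maturation genes were positive in 1 of 11, with a median of -0.55 and 6 of 11 below both controls, but in 5 of 9 in the Igfbpl1-led clusters. Immature neuron genes were positive in 6 of 12, astrocyte markers in 6 of 7, OPC markers in 1 of 5 and excitatory markers in 0 of 6. Of the excitatory markers 4 of 6 were positive without control 2, the library whose Sp8/Sp9 cells lay mostly outside the Igfbpl1-led clusters. Fos, an early response gene induced by dissociation among other stimuli, stood at 315, 45.1, 52.8 and 31.9 CPM, high in control 1 alone, and 2 of 5 tested genes of that list were higher than in Adarb2 interneurons. How far the unequal mix of clusters enters these differences was not tested.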

How the data were processed

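Single-cell 3′ RNA-seq (10x Genomics) was analysed from 4 libraries of Drd1a-tdTomato-sorted cells, 2 control and 2 cKO, with 4 golli-τ-eGFP libraries used only to count cells that met the rule. The values used are gene counts per cell as the authors deposited them. Per the submitters' processing notes the tools were Cell Ranger 2.1.1, UMI-tools 0.5.4, STAR 2.5.2b and featureCounts of Subread 1.6.2, with the builds mm10 and GRCm38.p6. The number of count columns set aside as belonging to no sample was 0.

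The cells and gene lists were chosen with earlier results of these data known. No cell was filtered out, and doublets were kept in the main results. An alternative took away the cells of highest doublet score, at a rate of 0.8% for every 1000 cells. Counts were summed per library and class, genes were kept by filterByExpr, and edgeR 4.0.16 (R 4.3.3) tested them by quasi-likelihood with TMM scaling, with Benjamini-Hochberg adjustment over all genes tested at 0.05. DESeq2 1.42.0 was an alternative. The class comparisons had the library as a block. The cKO comparison had no block, whereas its alternative had the replicate number, which the labels tie to the preparation day. Across 7078 genes the deviations of control 1 and cKO 1 correlated at r = 0.259. Single values were compared by exact permutation over libraries, and intervals are Clopper-Pearson at 95% and cover counting error only. P-values rest on the spread between these libraries, shared in part across genes. The replicate-block fit leaves hardly any residual degrees of freedom, so its p-values rest mainly on spread shared across genes, hardly on each gene's own. Clusters came from scanpy 1.11.5 and leidenalg 0.10.2 (2000 variable genes, 30 components, 20 neighbours, resolution 1), and OPC-like and endothelial-like clusters were named from marker genes. Thinning drew 2000 or 4000 counts per cell at random and left out shallower cells. The scripts were tested on simulated data.

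Genes named are those of the lists, the 10 largest called folds in each direction against each class with a mean of at least 50 CPM in the higher class and 1 direction in all 4 libraries, and for cKO against control the 5 smallest p in each direction without overlap. Pax6, Zic1, Etv1, Igfbpl1 and Nr2f2 in the cKO comparison come from the lists or the class comparisons and were singled out after their values were seen. Sex-linked and mitochondrial genes were counted and not named. A few genes that meet these rules are not reported here.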

Additional observations from a re-analysis of the deposited data

How the results depend on the processing

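The log2 ratio of the share of Sp8/Sp9 cells, cKO over control, was 2.25 and ranged from 1.76 (among cells with Gad1 and Gad2) to 4.70 (thinned to 2000 counts, with 2 and 0 control cells left) over the other rules, depths and cell filters. Leaving out 1 library gave 1.92 to 2.52, and the replicate block 2.22. The share test had no p below 0.33 to reach, so these values speak to size only. Among the 35 cells outside the Igfbpl1-led clusters the log2 ratio was 0.76, and without cells carrying excitatory or astrocyte markers it was 2.37, with cKO 2 within the control intervals. For genes called between cKO and control, of 7071 tested edgeR gave 0, DESeq2 2 and the replicate block 62. No filter on low counts gave 22 of 13509. Cells without excitatory or astrocyte markers gave 3 of 1297, and cells with both Sp8 and Sp9 10 of 4107. Leaving out 1 library, which leaves 1 library in an arm, gave 0 to 78, and the Igfbpl1-led clusters 0. The cause was not tested. With the replicate block the Foxp2 difference was 1.68 (edgeR adjusted p = 0.0186), and its adjusted p ranged from 0.0186 to 1.00 over the alternatives.

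Against Adarb2 interneurons the 903 called genes became 597 with DESeq2, 562 with no replicate block, 223 of 3123 tested when thinned to 4000 counts, and 347 to 789 with 1 library left out. Against Lhx6 interneurons the 865 became 470 with DESeq2, 537 with no replicate block, 91 of 508 tested when thinned, and 299 to 760 with 1 library left out. Fewer counts, samples or genes enter the thinned and left-out fits. Of the genes named against Adarb2 interneurons, the direction turned for Foxp1 (-0.0123) and Sox10 (-0.0793) in the Igfbpl1-led clusters, and for Aldoc (-0.217), Aqp4 (-0.748) and Slc1a2 (-0.0206) when thinned. Against Lhx6 interneurons it turned for Slc1a2 (-0.318) when thinned. The controls held 26 Sp8/Sp9 cells, at shares no higher than those of OPC-like cells, which limits what can be read from them.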
